A study of Mus musculus with 30 samples.

Results

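Matricellular proteins are secreted into the extracellular matrix without forming its fibres. The 9 genes described here are the 4 thrombospondins Thbs1 to Thbs4, cartilage oligomeric matrix protein (Comp, the fifth thrombospondin), periostin (Postn), osteopontin (Spp1), tenascin C (Tnc) and Sparc. They were taken by symbol from a table of 55487 mouse gene identifiers and followed in 30 heart RNA libraries. All 9 passed the filter on low counts in both cohorts.

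The tissue was heart, taken 8 weeks after surgery that either narrowed the aortic arch with a clip (TAC, transverse aortic constriction, which raises the load on the left ventricle) or was a sham. The floxed cohort held 4 libraries per group. Mice with a floxed CPT1a gene and no stated deletion had sham (FF_sham) or TAC (FF_TAC), and mice labelled as cardiac specific CPT1a knockouts had sham (KO_sham) or TAC (KO_TAC). The AAV9 cohort held C57Bl/6 mice injected with PBS, 3 after sham (PBS_sham) and 3 after TAC (PBS_TAC), or with AAV9.Cpt1a, 4 after sham (AAV_sham) and 4 after TAC (AAV_TAC). AAV9 is a virus-derived carrier, and the series' design text calls the overexpression cardiac-specific and writes the vector as AAV9.cTNTN.Cpt1a. The same text speaks of a knockdown where the genotype label says knockout. The labels used here do not name the Cre line of the knockout, the age or the sex, and the titles of the 4 KO_TAC samples contain both surgery names, while their treatment label, genotype label and column name give TAC and knockout. Cpt1a encodes the outer mitochondrial enzyme that hands long-chain fatty acids to carnitine, and the study asked what part a higher level of it plays in the overloaded heart.

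In the adult heart most matricellular genes are quiet and come on with injury or overload, largely in fibroblasts, where periostin marks the activated state. Thrombospondins 1 and 2 form trimers, bind CD36 and CD47 and restrain vessel growth, and thrombospondin 1 can activate latent TGF-beta. Thrombospondins 3 and 4 and Comp form pentamers, and thrombospondin 4, which cardiomyocytes also make under load, has been tied to the ATF6 branch of the endoplasmic reticulum stress response.

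The promoters of 3 members are printed to show the sequence next to the start of a gene that was higher under TAC (Postn and Thbs4) or lower (Thbs2). Each is the 250 bases before a RefSeq start (GRCm38.p6), read 5′ to 3′ on the gene's own strand, and capitals mark the matches of 4 motifs searched on both strands. The TATA box, which places the start of transcription, was searched as TATAAA. The M-CAT element of muscle promoters was searched as CATTCC. The site of the AP-1 early response factors was searched as TGANTCA, and the GC box, which Sp1 binds, as GGGCGG. The Postn window, chr3:54360857-54361106 on the plus strand, holds TATAAA beginning 26 bases before the start. The Thbs4 window, chr13:92794819-92795068 on the minus strand, holds CATTCC beginning at 197 and at 192 bases before the start, which overlap by 1 base, and GC boxes at 89 and 51 bases (opposite strand) and at 42 bases. The Thbs2 window, chr17:14694263-14694512 on the minus strand, holds TATAAA on the opposite strand at 126 bases.
Postn: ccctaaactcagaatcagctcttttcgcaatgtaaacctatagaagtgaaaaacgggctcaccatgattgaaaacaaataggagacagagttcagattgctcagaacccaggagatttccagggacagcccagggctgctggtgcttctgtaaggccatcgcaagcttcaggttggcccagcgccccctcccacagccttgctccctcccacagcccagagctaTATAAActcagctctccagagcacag
Thbs4: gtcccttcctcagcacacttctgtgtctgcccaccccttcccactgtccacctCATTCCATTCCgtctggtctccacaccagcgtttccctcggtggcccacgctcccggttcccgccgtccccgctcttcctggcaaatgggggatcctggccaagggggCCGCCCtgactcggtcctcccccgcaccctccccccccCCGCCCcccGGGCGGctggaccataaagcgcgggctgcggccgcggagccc
Thbs2: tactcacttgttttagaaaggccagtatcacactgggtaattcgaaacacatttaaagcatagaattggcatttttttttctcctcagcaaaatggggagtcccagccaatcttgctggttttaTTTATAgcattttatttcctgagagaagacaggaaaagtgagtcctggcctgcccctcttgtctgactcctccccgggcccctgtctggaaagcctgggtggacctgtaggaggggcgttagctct
RefSeq gave a promoter for 7 of the 9 members, with 2 starts each for Postn, Spp1 and Tnc. TATAAA was present upstream of Thbs2, of 1 of the 2 starts of Postn and of Spp1, and of both starts of Tnc, and 12.4% of 32851 mouse promoters of the same length, counted per start, hold it. The 2 Tnc windows overlap and share the same TATAAA and the same GC box. CATTCC was found upstream of Thbs4 alone among these 7 (12.6% of all promoters). A GC box lay upstream of Thbs3, Thbs4 and Tnc (32.7% of all promoters), and no AP-1 match was found in the 7 (6.75% of all promoters). These are letter matches in a window, not tested sites.

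Library totals ran from 14839758 to 22070373 counts. One feature of the libraries bears on every result of the floxed cohort. Summed haemoglobin transcripts were under 100 CPM (counts scaled to library size by the TMM method) in 7 libraries: all 4 KO_TAC, the libraries labelled FF_TAC 2 and FF_TAC 3, and the library labelled KO_sham 2. The other 23 libraries had 294 CPM or more. A list of 12 early response genes averaged 6.82 to 8.34 on the log2 CPM scale in those 7, whereas it averaged 2.63 to 3.51 in the remaining floxed hearts and 4.19 to 5.78 in AAV9 hearts. Cpt1a itself was 46.7 CPM in the library labelled KO_sham 2, inside the FF_sham range of 38.7 to 53.7 CPM, and 20.7 and 16.5 CPM in the libraries labelled FF_TAC 2 and FF_TAC 3, against 21.1 to 24.4 in the other 3 KO_sham libraries and 11.3 to 19.9 in KO_TAC. In the AAV9 cohort Cpt1a was 37.1 to 61.8 CPM in the 6 PBS libraries and 44.2 to 87.2 CPM in the 8 libraries with the vector. The cardiomyocyte markers (10 genes) summed to at least 57830 CPM in every library except PBS_sham 3, which had 26005 CPM. Directions drawn from FF_TAC and KO_sham therefore rest on labels that these 3 libraries go against, and results are given with and without them where they differ.

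By level per kilobase of exon, Sparc was the most abundant member in every group. In FF_sham its mean was 96.7 CPM per kilobase, against 4.02 for Postn, 2.78 for Thbs2, 2.24 for Comp, 1.76 for Thbs4, 1.75 for Thbs3, 1.04 for Thbs1, 0.436 for Spp1 and 0.150 for Tnc. In KO_TAC the means were 231 for Sparc, 55 for Postn, 45.9 for Comp, 37.9 for Thbs1, 28.8 for Thbs4, 4.05 for Spp1, 3.9 for Thbs3, 1.99 for Thbs2 and 1.14 CPM per kilobase for Tnc. Thbs2 thus ranked behind only Sparc and Postn in the floxed sham heart and ahead of only Tnc in KO_TAC, while Comp, Thbs1 and Thbs4 held the places behind Postn there with ranges that overlapped one another.

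**Figure D1:**
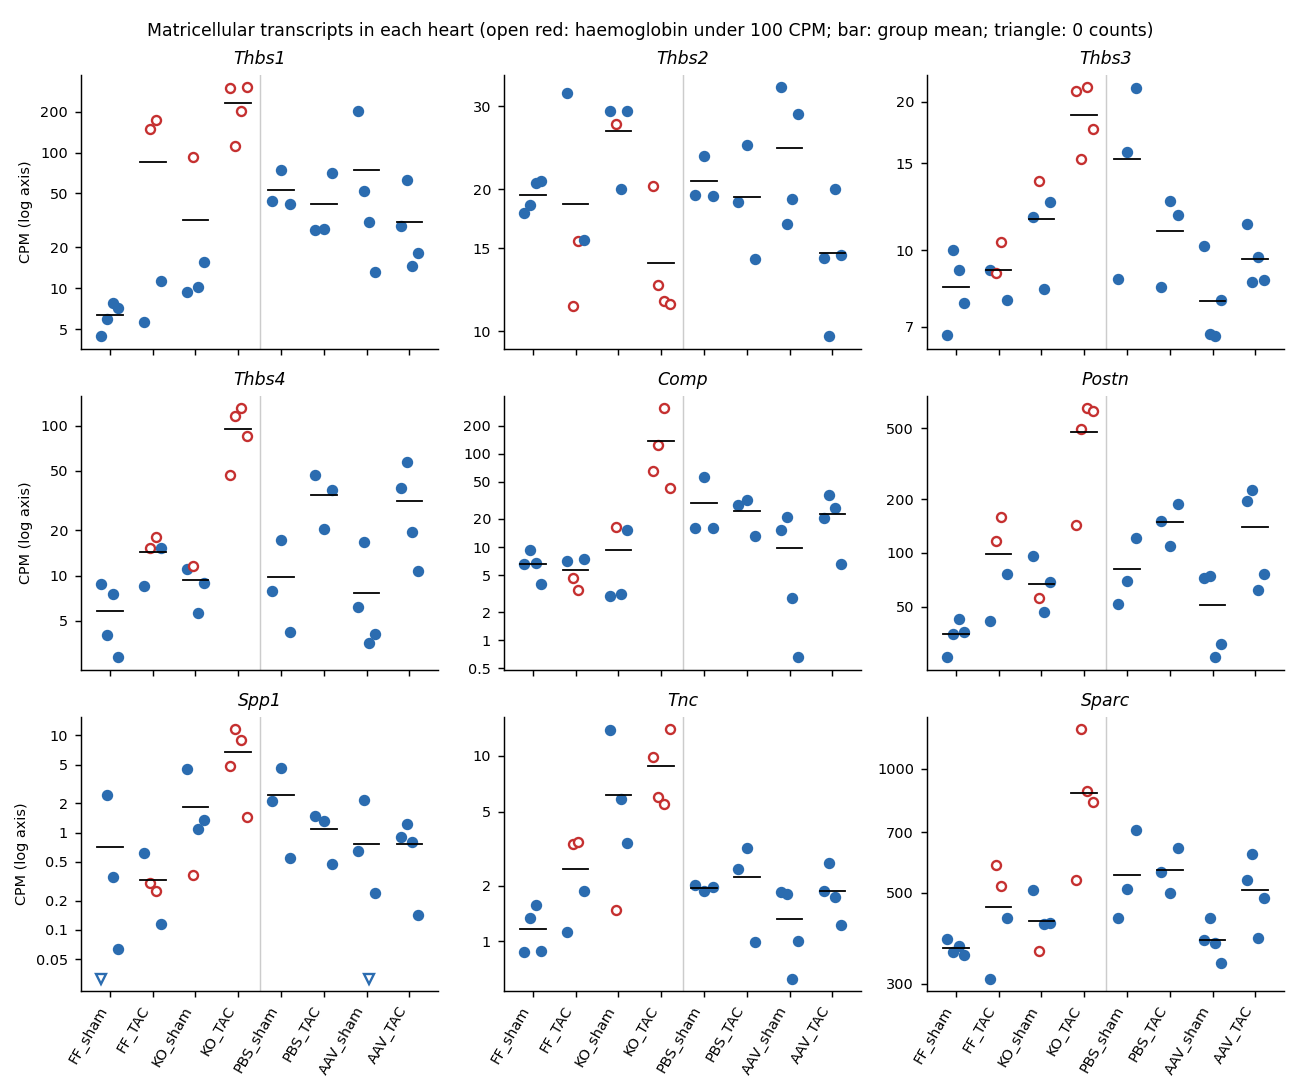
Level of each member in every library as CPM (vertical log axis, a different range per gene) for the 8 groups, with the floxed cohort left of the grey line; points are libraries, bars are group means, open red points are the 7 libraries with haemoglobin under 100 CPM and triangles are libraries with 0 counts. KO_TAC stands above the other floxed groups for Thbs4 and Comp in all 4 libraries, and Thbs1 is high in every open red point.

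Overload of the knockout heart was the setting in which most of these genes moved. Between KO_TAC and KO_sham, 6 of the 9 members rose (Comp, Thbs4, Postn, Thbs1, Sparc and Thbs3) and 1 fell (Thbs2), by edgeR's quasi-likelihood test with a Benjamini-Hochberg adjusted p under 0.05 over 15596 genes. In that comparison 25.8% of all genes passed, 14.3% as higher and 11.5% as lower. The 6 risers did not overlap between the groups, as 9.85% of all genes did not in that direction. The median log2 fold change of the 9 was 1.89, against 0.02 for all genes. Bulk RNA cannot tell fewer cells of a type from less RNA per cell.

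Between KO_TAC and FF_TAC, 7 of the 9 rose (Comp, Spp1, Thbs4, Postn, Tnc, Thbs3 and Sparc), where 14.3% of all genes passed and 7.53% were higher. Of these 7, 5 did not overlap (6.05% of all genes), while Postn and Sparc did, through KO_TAC 1. The median over the 9 was 1.88, against 0.04 for all genes. This comparison and the one with KO_sham share the KO_TAC libraries, so they are not independent. Without the 3 libraries at odds with their group, 7 members passed in each comparison, where 23.4% and 22.4% of all genes did. Against FF_TAC these 7 included Thbs1 in place of Spp1. With a term for low haemoglobin in the fit, 2 members passed against KO_sham (Thbs4 and Comp) and 5 against FF_TAC (Comp, Spp1, Thbs4, Postn and Thbs3), while 1.75% and 7.23% of all genes did. Every KO_TAC library was haemoglobin-low and every FF_sham library high. The term was thus set only by KO_sham 2, FF_TAC 2 and FF_TAC 3, against the other libraries of their labelled groups. Within KO_TAC, low haemoglobin and overload of the knockout cannot be told apart. Among haemoglobin-low libraries alone, none of the 9 passed against FF_TAC (4 against 2 libraries), nor did any gene.

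Thbs4 (ENSMUSG00000021702, chromosome 13, 92751590 to 92794818, minus strand) is the pentameric thrombospondin of tendon and loaded heart. Its levels were 46.6, 116, 131 and 85.7 CPM in the 4 KO_TAC libraries. They were 11, 11.6, 5.61 and 8.96 CPM in KO_sham, 8.45, 15.3, 18.2 and 15.2 CPM in FF_TAC and 8.82, 4.03, 7.48 and 2.84 CPM in FF_sham. Every KO_TAC library exceeded every other floxed library, and KO_TAC 1 was the lowest of the 4. The rise was 10.5-fold over KO_sham (log2 fold change 3.39, SE 0.40, adjusted p 0.0003856, edgeR) and 6.82-fold over FF_TAC (2.77, SE 0.38, adjusted p 0.0007645). With the haemoglobin term, set by KO_sham 2, FF_TAC 2 and FF_TAC 3 alone, the rise was 3.03 (adjusted p 0.01388) and 2.54 (adjusted p 0.005076). FF_TAC was 2.46-fold above FF_sham (1.3, SE 0.38), a difference that did not pass after adjustment (p 0.004043, adjusted p 0.3279).

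Thbs4 also carried the clearest response to overload in the AAV9 cohort. It measured 46.6, 20.4 and 37.0 CPM in PBS_TAC against 7.87, 17.3 and 4.2 CPM in PBS_sham, with no overlap. With the vector it measured 38.6, 56.9, 19.5 and 10.7 CPM after TAC and 6.21, 16.8, 3.55 and 4.08 CPM after sham, where AAV_TAC 4 fell inside the sham range. The differences were 3.53-fold (log2 1.82, SE 0.68, p 0.01802, adjusted p 0.2027) and 4.10-fold (2.03, SE 0.60, p 0.004358, adjusted p 0.3431). Neither passed, in comparisons where 0.0318% and 0.00635% of all genes did. By unadjusted p under 0.05, Thbs4 was the one member with PBS (18.5% of all genes), and Thbs4, Postn and Thbs2 were the members with the vector (7.05%). Thbs4 was also the one member free of overlap with PBS, as 8.72% of all genes were in that direction. Averaged over both arms, a comparison added after the data were seen, the TAC effect was 1.93 (SE 0.45, adjusted p 0.05991), and 0.908% of 15745 genes passed, while Thbs4, Postn and Thbs2 had an unadjusted p under 0.05 (17.9% of all genes). Thbs4 passed with DESeq2 (1.92, adjusted p 0.007857), which called 670 of 17853 genes, and in edgeR without PBS_sham 1 (adjusted p 0.04491), without PBS_sham 3 (0.04804) or without AAV_sham 2 (0.03985), fits that called 1155, 720 and 73 of all genes. It thus passed in 3 of 14 fits that each left out 1 library (highest adjusted p 0.1561), and in 3 of 5 other settings. With log2 Myl7, an atrial myosin light chain, as a term, it did not pass, and 0 of 15745 genes did.

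Comp (ENSMUSG00000031849, chromosome 8, 70373558 to 70382066, plus strand) is best known from cartilage and tendon. Its levels in KO_TAC were 64.8, 126, 310 and 43.5 CPM. The other floxed libraries had 2.94, 16.4, 3.13 and 15.1 CPM (KO_sham), 7.05, 4.66, 3.43 and 7.44 CPM (FF_TAC) and 6.63, 9.18, 6.73 and 4.04 CPM (FF_sham). All 4 KO_TAC libraries were above all 12 others, with KO_TAC 3 far above the rest. The rise was 14.9-fold over KO_sham (log2 3.9, SE 0.67, adjusted p 0.002171) and 24.7-fold over FF_TAC (4.62, SE 0.70, adjusted p 0.001209). Leaving out KO_TAC 3 lowered these to 3.12 and 3.84, and both still passed.

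In FF_TAC, by contrast, Comp differed from FF_sham by −0.23 (SE 0.64, adjusted p 0.8954). The difference between the 2 overload effects, 4.13 on the log2 scale (SE 0.91), had an unadjusted p of 0.0003533 and an adjusted p of 0.09122. Comp in the AAV9 cohort ran from 0.651 to 56.8 CPM without a TAC difference that passed (−0.29, SE 0.85, with PBS and 1.18, SE 0.76, with the vector). Within sham groups it was higher where atrial transcripts were present: KO_sham 2 and 4, with 16.4 and 15.1 CPM of Comp, had a mean of 6.74 and 6.20 log2 CPM over 8 atrial markers, against 1.5 and 1.44 in KO_sham 1 and 3. PBS_sham 2, the highest AAV9 library at 56.8 CPM, had an atrial mean of 8.77. KO_TAC 1 had the same atrial mean with 64.8 CPM. KO_TAC 2, 3 and 4 had 126, 310 and 43.5 CPM of Comp with atrial means of 2.33, 2.64 and 1.98, and with log2 Myl7, an atrial myosin light chain, as a term the change was 4.32 against KO_sham and 4.59 against FF_TAC. The 13 cartilage, tendon and valve markers summed to 87.5 to 197 CPM in KO_TAC, 32.0 to 56.0 in KO_sham and 39.3 to 44.0 in FF_TAC. None was at 0 in all 4 KO_TAC libraries. Their mean log2 level overlapped between KO_TAC and KO_sham, but not between KO_TAC and FF_TAC. Only 6 of the 13 were tested. Against KO_sham 3 were called higher (Sox9, Prg4 and Scx) and 1 lower (Cnmd), and against FF_TAC 2 higher (Sox9 and Prg4). Of all genes, 14.3% were higher and 11.5% lower against KO_sham, and 7.53% higher against FF_TAC. The part of these markers in the Comp result was not tested.

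Thbs3 (ENSMUSG00000028047, chromosome 3, 89215180 to 89226837, plus strand), the third pentameric form, moved less. It measured 21.0, 15.3, 21.4 and 17.6 CPM in KO_TAC, 11.7, 13.8, 8.36 and 12.5 CPM in KO_sham and 7.95 to 10.4 CPM in FF_TAC. KO_TAC did not overlap either group. The rises were 1.66-fold (log2 0.73, SE 0.16, adjusted p 0.007334) and 2.1-fold (1.07, SE 0.17, adjusted p 0.001385), and the first was 0.53 with the haemoglobin term (adjusted p 0.1663). Thbs3 shares 318 exonic bases, 6.59% of its exons, with Mtx1 on the opposite strand, which had 225 to 563 counts per library. The strand setting of the counting is not given in the sources used here, so the Thbs3 values are uncertain.

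Thbs1 (ENSMUSG00000040152, chromosome 2, 118111876 to 118127133, plus strand) is the trimeric, TGF-beta activating member and an early response gene in many cells. It measured 301, 112, 204 and 304 CPM in KO_TAC, and 9.33, 92.9, 10.3 and 15.6 CPM in KO_sham. In FF_TAC it measured 5.64, 150, 175 and 11.3 CPM, against 4.44 to 7.77 CPM in FF_sham. The high values inside FF_TAC and KO_sham are those of the 3 haemoglobin-low libraries, and no other FF or KO_sham library passed 15.6 CPM. The rise over KO_sham was 7.27-fold (log2 2.86, SE 0.95, adjusted p 0.03891). It held when KO_sham 2 or KO_TAC 1 was dropped but not when any of the other 6 libraries was, was 4.32 without the library labelled KO_sham 2, and was 0.74 with the haemoglobin term (adjusted p 0.3643). Against FF_TAC the difference was 1.45 (SE 0.90, adjusted p 0.2880), and 4.78 (adjusted p 5.130e-05) without the libraries labelled FF_TAC 2 and FF_TAC 3 and KO_sham 2. The FF_TAC difference from FF_sham was 3.76 (SE 1.01, p 0.001973, adjusted p 0.3279), and 0.41 between haemoglobin-high libraries alone.

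Across the 30 libraries Thbs1 correlated with the mean of the early response genes at Pearson's r = 0.92. Within the 23 haemoglobin-high libraries r was 0.90, and within the 7 low ones 0.06, as a description over libraries that share groups and cohorts. The 3 genes with the most similar profile, out of 15301, were Skil (0.96), Egr3 (0.95) and Egr2 (0.94), of which the Egr genes are early response factors. In the AAV9 cohort Thbs1 ran from 13.3 CPM in AAV_sham 4 to 203 CPM in AAV_sham 1 and did not differ by TAC beyond its spread (−0.38, SE 0.79, with PBS and −1.27, SE 0.69, with the vector). The value with the vector was −0.06 without AAV_sham 1.

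**Figure D2:**
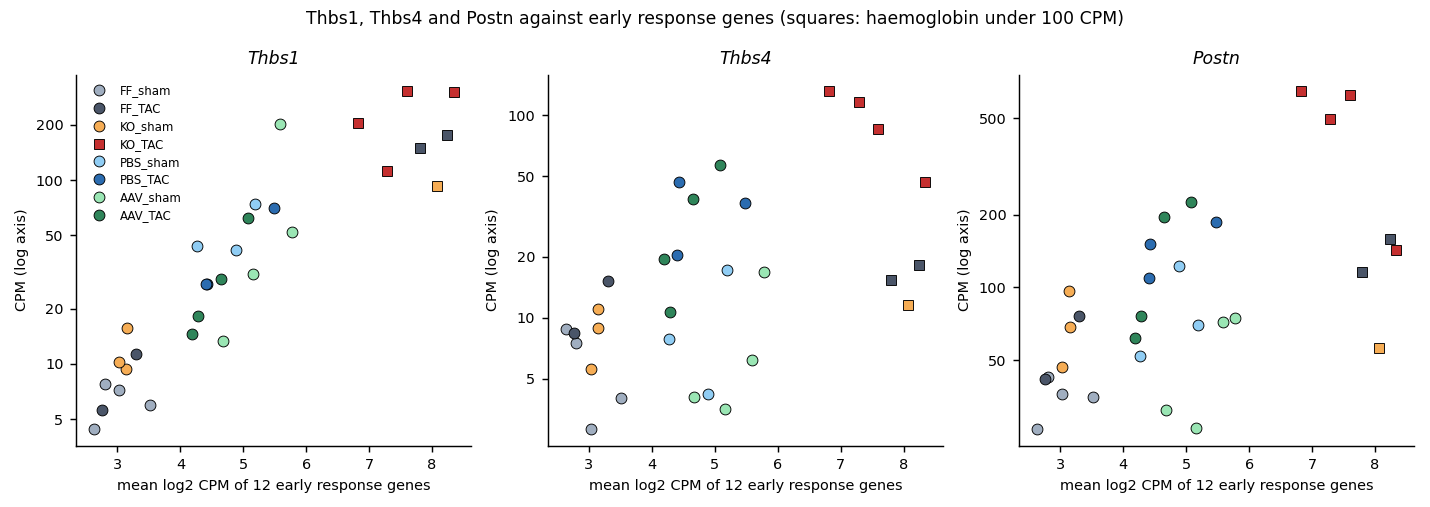
CPM (log axis) of Thbs1, Thbs4 and Postn in each library against the mean log2 CPM of 12 early response genes, coloured by group, with squares for haemoglobin under 100 CPM. The 3 squares outside KO_TAC are among the high Thbs1 values (92.9, 150 and 175 CPM) but lie below every KO_TAC square for Thbs4 (11.6, 15.3 and 18.2 CPM).

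Thbs2 (ENSMUSG00000023885, chromosome 17, 14665500 to 14694235, minus strand), the other trimeric form and an inhibitor of vessel growth, was the member that went down. It measured 20.3, 12.5, 11.6 and 11.4 CPM in KO_TAC against 29.4, 27.5, 20.0 and 29.3 CPM in KO_sham, with KO_TAC 1 just inside the sham range. The fall was 1.85-fold (log2 −0.89, SE 0.27, adjusted p 0.02522), was lost without any one of KO_sham 1, KO_sham 4, KO_TAC 2, KO_TAC 3 and KO_TAC 4, and was −0.61 with the haemoglobin term (adjusted p 0.2851). FF_TAC spread from 11.3 to 32.1 CPM around the FF_sham range of 17.8 to 20.8 CPM (−0.06, SE 0.26), and KO_TAC against FF_TAC gave −0.38 (SE 0.27, adjusted p 0.3414).

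With the vector Thbs2 measured 14.3, 9.75, 20.0 and 14.5 CPM after TAC and 33.0, 16.9, 19.1 and 28.9 CPM after sham, overlapping groups (−0.75, SE 0.25, p 0.008918, adjusted p 0.4413). With PBS the difference was −0.15 (SE 0.28). Over all 30 libraries its correlation was negative with each of the other 8 members, at −0.66 with Sparc, −0.62 with Postn and −0.61 with Thbs4, and between −0.38 and −0.08 with the rest. KO_TAC 1, its highest value in that group, also had the lowest Thbs4, Postn and Sparc of the 4, the highest sum of atrial markers in the series (18348 CPM) and 94.1 CPM over 5 epicardial markers, against 11.4 to 23.7 CPM in KO_TAC 2 to 4.

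As shares of summed thrombospondin transcripts per kilobase, the make-up of the family changed from group to group. Thbs2 held 29.4% ± 5.18 in FF_sham, 25.5% ± 9.49 in KO_sham, 16.2% ± 15.1 in FF_TAC and 1.87% ± 0.920 in KO_TAC (SD, n = 4 each). It held 4.69% and 5.58% in the haemoglobin-low FF_TAC 2 and FF_TAC 3, and 12.6% in KO_sham 2, the lowest of its group. A share also falls as the family's sum rises, and that sum was 92.8 to 184 CPM per kilobase in KO_TAC and 9.04 to 31.2 in KO_sham. In KO_TAC, Thbs1 held 35.5% ± 19.9, Comp 34.4% ± 18.7 and Thbs4 24.7% ± 8.28, and the libraries split between those led by Thbs1 (KO_TAC 1 and 4) and those led by Comp (KO_TAC 2 and 3). Thbs4 took 33.8% ± 10.6 in PBS_TAC and 10.2% ± 3.49 in PBS_sham (SD, n = 3 each). With the vector it took 33.9% ± 8.46 after TAC and 11.9% ± 7.01 after sham (SD, n = 4 each). In both arms the ranges did not overlap: 22.4 to 43.4% against 6.16 to 12.2%, and 26.4 to 42.1% against 3.99 to 20.7%. These shares were not tested.

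**Figure D3:**
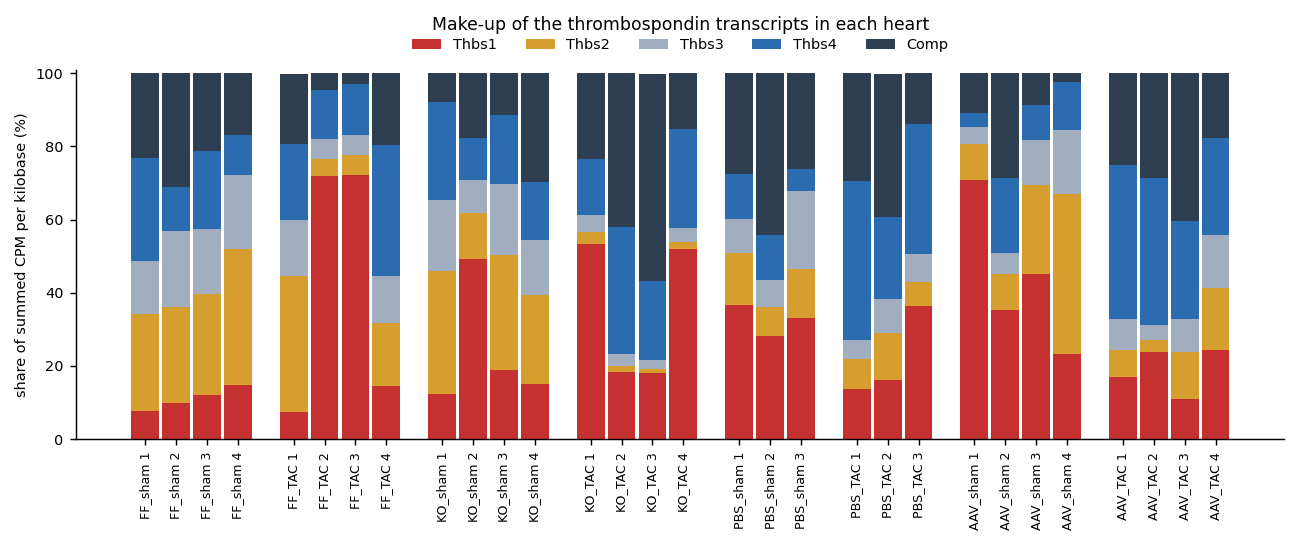
Share of each thrombospondin in the family's summed CPM per kilobase (vertical axis, percent) for each of the 30 libraries, ordered by group. The Thbs2 band is narrow in all KO_TAC libraries (0.899 to 3.12%), and also in AAV_TAC 2 (3.23%), FF_TAC 2 (4.69%) and FF_TAC 3 (5.58%). The Thbs4 band is wider in TAC than in sham libraries in both arms of the AAV9 cohort.

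Postn (ENSMUSG00000027750, chromosome 3, 54361109 to 54391037, plus strand), the activated fibroblast's periostin, measured 143, 497, 647 and 627 CPM in KO_TAC. The other floxed values were 96.6, 56.3, 47.0 and 68.7 CPM in KO_sham, 41.7, 116, 159 and 75.9 CPM in FF_TAC and 26.0, 35.2, 42.7 and 36.1 CPM in FF_sham. KO_TAC was above KO_sham throughout, and KO_TAC 1 alone fell below the library labelled FF_TAC 3. The rises were 7.33-fold (log2 2.87, SE 0.45, adjusted p 0.001428) and 4.98-fold (2.32, SE 0.44, adjusted p 0.003752). With the haemoglobin term they were 2.35 (adjusted p 0.06039) and 2.09 (adjusted p 0.01887).

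In FF_TAC, Postn was 2.81-fold above FF_sham (1.49, SE 0.43, p 0.003563, adjusted p 0.3279), and the 2 haemoglobin-high FF_TAC libraries gave 0.74. In the AAV9 cohort it measured 151, 109 and 187 CPM in PBS_TAC and 51.9, 69.6 and 122 CPM in PBS_sham, overlapping through PBS_sham 3. With the vector it was 196, 225, 61.9 and 76.1 CPM after TAC and 72.0, 74.3, 26.2 and 31.1 CPM after sham, again with overlap. The average TAC effect of that cohort was 1.14 (SE 0.35, adjusted p 0.1290), and 1.38 (adjusted p 0.04782) without PBS_sham 3, the library low in cardiomyocyte markers. Of 14 fits that each left out 1 library, that was the 1 in which Postn passed. The profile of Postn was close to those of the matrix genes Mfap5 and Bgn (r = 0.95 each over 30 libraries), and among members it followed Sparc (0.91) and Thbs4 (0.89).

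Sparc (ENSMUSG00000018593, chromosome 11, 55394500 to 55423183, minus strand) encodes a collagen-binding protein needed for collagen assembly. It measured 538, 1246, 882 and 829 CPM in KO_TAC, 507, 360, 420 and 421 CPM in KO_sham, 309, 582, 518 and 435 CPM in FF_TAC and 352 to 386 CPM in FF_sham. KO_TAC lay above KO_sham, with KO_TAC 1 close to it and inside the FF_TAC range. The rises were 2.12-fold (log2 1.08, SE 0.23, adjusted p 0.005335) and 1.95-fold (0.96, SE 0.23, adjusted p 0.01183). They were 0.90 (adjusted p 0.1361) and 0.87 (adjusted p 0.05367) with the haemoglobin term. Its closest profiles were Mfap5 (0.96), Igfbp7 (0.96) and Fstl1 (0.94). In the AAV9 cohort it ran from 337 to 708 CPM, with TAC differences of −0.01 (SE 0.22) and 0.40 (SE 0.19).

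Spp1 (ENSMUSG00000029304, chromosome 5, 104435118 to 104441050, plus strand), osteopontin, which macrophages make in the injured heart, was scarce. It measured 4.84, 11.5, 8.94 and 1.45 CPM in KO_TAC (24 to 160 counts), and 0.62, 0.306, 0.25 and 0.114 CPM in FF_TAC (2 to 11 counts). No FF_TAC library reached the lowest KO_TAC library. The rise of 20.8-fold (log2 4.38, SE 1.07, adjusted p 0.01416) therefore rests on few counts in FF_TAC, and did not pass without FF_TAC 4 (adjusted p 0.05443) or without the 3 doubtful libraries (4.19, adjusted p 0.05521). KO_sham, at 4.55, 0.368, 1.08 and 1.35 CPM, overlapped KO_TAC (1.89, SE 0.89, adjusted p 0.1234). FF_sham 1 and AAV_sham 3 had 0 counts, which allows up to 0.178 and 0.164 CPM. Spp1 was most like Tmem176b (0.87), Tmem176a (0.85) and Cd302 (0.84).

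Tnc (ENSMUSG00000028364, chromosome 4, 63959785 to 64047015, minus strand), a de-adhesive glycoprotein of wounds, was low in every FF_sham library. It measured 13.8, 1.47, 5.88 and 3.40 CPM in KO_sham and 9.83, 6.03, 5.51 and 13.9 CPM in KO_TAC, which overlapped (0.55, SE 0.52, adjusted p 0.4363). In FF_sham it measured 0.876 to 1.57 CPM, and 3 of the 4 KO_sham libraries were above that range, the exception being the library labelled KO_sham 2, the one with a floxed level of Cpt1a. KO_sham against FF_sham gave 2.38 (SE 0.58, p 0.0008508, adjusted p 0.7982), in a comparison where no gene passed adjustment (0.00%) and 5.22% had an unadjusted p under 0.05. The same difference was 2.70 without the library labelled KO_sham 2 and 1.60 without KO_sham 1, which had 13.8 CPM. Leaving out KO_sham 1 also moved the difference between KO_TAC and KO_sham to 1.33, which did not pass. FF_TAC measured 1.13, 3.37, 3.43 and 1.87 CPM, and KO_TAC exceeded it 3.67-fold without overlap (1.88, SE 0.55, adjusted p 0.03300). The call was lost without FF_TAC 1, FF_TAC 4 or KO_TAC 4 (highest adjusted p 0.1035), and under the haemoglobin term the value was 1.91 (adjusted p 0.07854). Its closest profiles were Timp1, Hcls1 and Lcp1 (0.83 each), and Hcls1 and Lcp1 are expressed by white blood cells.

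**Figure D4:**
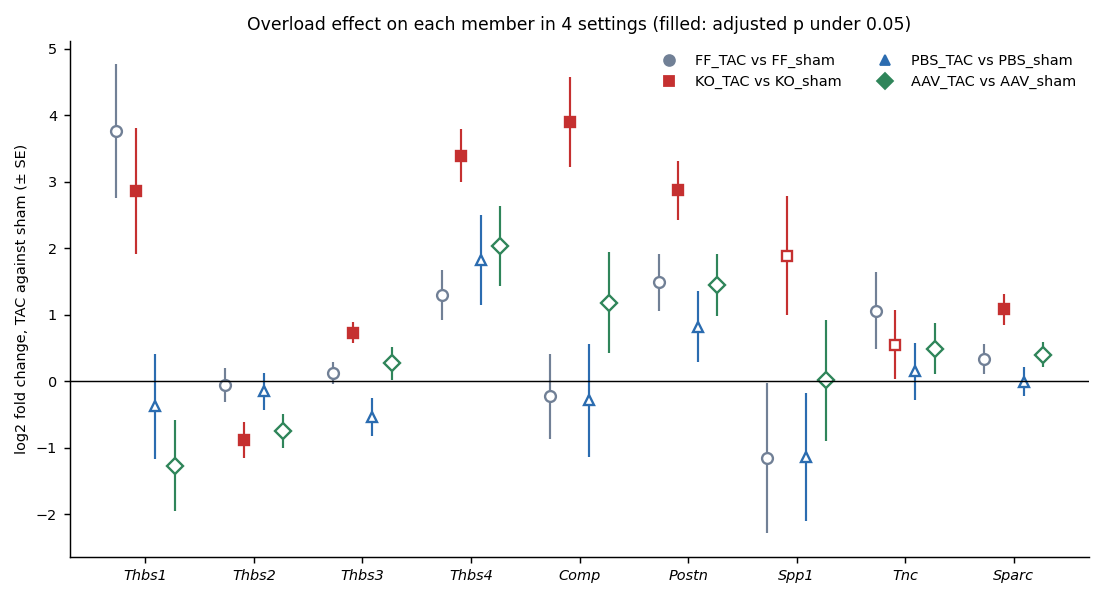
Log2 fold change of TAC against sham with its standard error (vertical axis) for the 9 members, in FF (circles), KO (squares), PBS (triangles) and AAV (diamonds) hearts; filled symbols have an adjusted p under 0.05. Filled symbols occur in KO alone, and the Thbs4, Postn and Tnc values are above 0 in all 4 settings.

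In floxed controls, no member passed for TAC against sham, and no gene did (0.00% of 15596). By unadjusted p, Thbs1, Thbs4 and Postn were under 0.05, where 11.1% of all genes were. DESeq2 called these 3, with adjusted p values of 0.01459, 0.04754 and 0.03721, among 166 of 15510 genes it called, while edgeR gave 0.3279 for each. None of the 9 was free of overlap between FF_TAC and FF_sham (2.94% of all genes were, as higher). Their values without the libraries labelled FF_TAC 2 and FF_TAC 3 and KO_sham 2 were smaller: the haemoglobin-high fits gave 0.41, 1.02 and 0.74.

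Whether TAC acted differently in knockout and floxed hearts was tested as an interaction. No member passed, in a fit where 0.0449% of all genes did, and 7 of the 9 had an unadjusted p under 0.05 against 13.1% of all genes. The largest values were Comp 4.13 (adjusted p 0.09122), Spp1 3.06 (SE 1.44, adjusted p 0.3801) and Thbs4 2.09 (SE 0.53, adjusted p 0.1259). The Spp1 value rested on FF_sham 2 and was 0.73 without it. DESeq2 called Comp (adjusted p 0.002784) and Thbs4 (0.009864), among 364 of 15510 genes. Thbs1 had an interaction of −0.89 (SE 1.28) over all libraries and 3.91 (adjusted p 0.001853) without the libraries labelled KO_sham 2, FF_TAC 2 and FF_TAC 3. With the same omission, Thbs4 (2.49, adjusted p 0.04964) and Comp (4.2, adjusted p 0.04820) passed too, in a fit that called 825 of 16319 genes. Over all libraries, then, the overload effect was not shown to differ between genotypes for any member by edgeR.

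Without overload, no member passed between knockout and floxed hearts, and 4 (Thbs1, Thbs3, Postn and Tnc) had an unadjusted p under 0.05, as 5.22% of all genes did. Thbs1 and Postn were free of overlap as higher in KO_sham (3.26% of all genes). Thbs1 measured 9.33 to 92.9 CPM against 4.44 to 7.77, and Postn 47.0 to 96.6 against 26.0 to 42.7 CPM (0.94, SE 0.43, adjusted p 0.9444). Between haemoglobin-high libraries the values were 0.88 for Thbs1 and 1.01 for Postn. All 9 log2 fold changes were above 0, from 0.21 for Sparc to 2.38 for Tnc, with a median of 0.68 against 0.00 for all genes. The summed macrophage markers were 333 to 715 CPM in KO_sham and 236 to 358 CPM in FF_sham, and their part in these values was not tested.

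No member passed between hearts with and without the vector. After TAC, AAV_TAC against PBS_TAC gave log2 fold changes between −0.51 (Spp1, SE 0.95) and −0.09 (Postn, SE 0.49), all 9 below 0, and 0.0381% of all genes passed. None of the 9 had an unadjusted p under 0.05 (3.19% of all genes), with standard errors from 0.21 for Sparc to 0.95 for Spp1. After sham, 0.0127% of all genes passed and no member did. Thbs3 had a log2 difference of −1.0 (SE 0.26, p 0.002078, adjusted p 0.1313) and Sparc of −0.56 (SE 0.21, p 0.01711, adjusted p 0.1832), the 2 members with an unadjusted p under 0.05 (20.7% of all genes). Thbs3 in PBS_sham was 8.74, 15.8 and 21.3 CPM, the last in PBS_sham 3, and without that library the difference was −0.62 (adjusted p 0.3365). Without PBS_sham 1 both passed, Thbs3 at −1.28 (adjusted p 0.006809) and Sparc at −0.72 (adjusted p 0.03748), and Thbs3 also passed as lower in PBS_TAC than in PBS_sham (−0.82, adjusted p 0.04121). Those fits called 2821 and 1796 of 16209 genes. Tnc was the one member free of overlap there, 0.630 to 1.84 CPM with the vector and 1.86 to 2.01 without (5.54% of all genes were lower without overlap). The interaction of vector and TAC passed for no member (0.00635% of all genes) and was 0.22 (SE 0.88) for Thbs4. Thbs3 alone had an unadjusted p under 0.05 there (0.81, SE 0.38, p 0.04968), as 6.95% of all genes did.

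The other genes of these pathways, from lists fixed with earlier results in view, were called in KO_TAC as follows. Of 22 other matricellular genes tested, 10 were higher and 0 lower than in KO_sham, and the same numbers held against FF_TAC. Of all genes, 14.3% were higher and 11.5% lower than in KO_sham. Against FF_TAC 7.53% of all genes were higher, and 14.3% passed in either direction. Against KO_sham the largest rises were Cilp (log2 2.83, SE 0.43), Mfap5 (2.64, SE 0.36), Ccn2, a TGF-beta target (2.50, SE 0.43), and Mfap4 (2.30, SE 0.34), and against FF_TAC Lgals3, the macrophage galectin (3.57, SE 0.57), Smoc1 (2.86, SE 0.56), Ccn2 (2.37, SE 0.43) and Mfap5 (2.26, SE 0.35). With the haemoglobin term 7 and 8 were called, as were 1.75% and 7.23% of all genes. In the averaged TAC effect of the AAV9 cohort, Ccn5 (1.59, SE 0.17, adjusted p 0.002176) and Cilp (2.22, SE 0.39, adjusted p 0.02664) passed, 2 of these 22. The integrin subunit Itga9 (0.68, SE 0.15, adjusted p 0.04809) passed too, 1 of the 22 receptors and binding partners listed below. All 3 are named here after their values were seen. Of all genes 0.908% passed there, and none did with the Myl7 term. Cilp was also the gene most like Thbs4 across the 30 libraries (r = 0.93), followed by Itgbl1 and Serpinb1c (0.92 each).

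Among 22 receptors and binding partners, 10 were higher and 2 lower in KO_TAC than in KO_sham, and 8 higher and 2 lower than in FF_TAC. Against KO_sham 14.3% of all genes were higher and 11.5% lower. Against FF_TAC 7.53% were higher, and 14.3% passed in either direction. Sdc4, a syndecan that binds thrombospondin and tenascin (2.50, SE 0.64, adjusted p 0.01369), and Cd44, the osteopontin and hyaluronan receptor (2.05, SE 0.41, adjusted p 0.003992), rose over KO_sham. Cd44 (1.66, SE 0.40) and the periostin-binding integrin subunit Itgb3 (1.36, SE 0.31) rose over FF_TAC. The thrombospondin and fatty acid receptor Cd36 was 878 ± 110 CPM in KO_TAC, 1391 ± 139 in KO_sham and 1387 ± 135 in FF_TAC (SD, n = 4 each), a fall of −0.62 (SE 0.11, adjusted p 0.002654) and −0.63 (SE 0.11, adjusted p 0.002641). Cacna2d1, the calcium channel subunit that binds thrombospondins, fell by 0.37 (SE 0.11, adjusted p 0.02938) and 0.36 (SE 0.11, adjusted p 0.04548). With the haemoglobin term 1 of the 22 passed against KO_sham (Itgb3), and 7 against FF_TAC, Cd36 among them. Of all genes 1.75% and 7.23% did. Cacna2d1 was not called in either comparison without KO_sham 2, FF_TAC 2 and FF_TAC 3, while Cd36 was in both.

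In the TGF-beta branch, 9 of 17 genes were higher and 1 lower in KO_TAC than in KO_sham, and 6 higher than in FF_TAC. The shares of all genes were 14.3% higher and 11.5% lower against KO_sham, and 7.53% higher against FF_TAC. The latent TGF-beta binding protein Ltbp2 rose most, from 5.42 ± 2.24 CPM in KO_sham and 10.8 ± 4.72 in FF_TAC to 84.0 ± 40.2 in KO_TAC (SD, n = 4 each), with log2 fold changes of 4 (SE 0.50) and 3.01 (SE 0.47). Tgfb2 (1.81, SE 0.25) rose over KO_sham, and Ltbp1 fell (−0.63, SE 0.22, adjusted p 0.04259), a call not made without the library labelled KO_sham 2 and its 2 FF_TAC counterparts. Tgfb2 (1.49, SE 0.25), Tgfb3 (0.83, SE 0.16) and the inhibitor Smad7 (0.81, SE 0.21) rose over FF_TAC. With the haemoglobin term 3 and 5 passed, as did 1.75% and 7.23% of all genes. Ltbp1 was the second most similar gene to Thbs2 (r = 0.82), after Mdc1 (0.83).

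Of 15 genes of the ATF6 branch, 6 were higher in KO_TAC than in KO_sham and 8 higher than in FF_TAC, with none lower. Of all genes, 14.3% and 7.53% were higher. The changes were small. Creld2 (0.99, SE 0.19), Manf (0.72, SE 0.17), Calr (0.49, SE 0.12) and Hspa5 (0.42, SE 0.14) rose over KO_sham, and Sdf2l1 (1.09, SE 0.25), Creld2 (0.98, SE 0.19), Manf (0.85, SE 0.17) and Pdia4 (0.57, SE 0.18) over FF_TAC. With the haemoglobin term 0 of 15 passed against KO_sham, where 1.75% of all genes did, and 3 against FF_TAC, where 7.23% did. Without KO_sham 2, FF_TAC 2 and FF_TAC 3, 4 and 5 of the 15 passed, as did 23.4% and 22.4% of all genes. Hspa5 was then not called against KO_sham, nor Pdia4 against FF_TAC.

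Cell type markers moved with these results. In KO_TAC 14.3% of all genes were higher and 11.5% lower than in KO_sham. Against FF_TAC 7.53% were higher, and 14.3% passed in either direction. Over 10 fibroblast markers the summed level was 3523 to 4997 CPM in KO_TAC, 2476 to 3319 in KO_sham and 2294 to 2635 in FF_TAC, with 4 and 6 of the 10 called higher. Activated fibroblast markers summed to 456 to 535 CPM, 244 to 298 and 219 to 243, with 3 and 5 of 9 called higher. Macrophage markers summed to 450 to 511 CPM in KO_TAC and 275 to 320 in FF_TAC, with 5 of 10 called higher, and to 333 to 715 in KO_sham, where none was called higher and 1 (Ccr2) lower. Endothelial markers summed to 1065 to 1501 CPM in KO_TAC, 1476 to 1854 in KO_sham and 1531 to 1908 in FF_TAC, with 4 of 8 called lower in each comparison. Smooth muscle and pericyte markers summed to 671 to 1085 CPM in KO_TAC, 1168 to 1536 in KO_sham and 1072 to 1469 in FF_TAC, with 3 of 8 called lower against KO_sham and 4 against FF_TAC. No fibroblast or macrophage marker was at 0 in all libraries of a group. Their part in the rises of Postn, Comp, Thbs4, Spp1 and Sparc was not tested. Across the 30 libraries, the mean of the fibroblast markers correlated with Thbs3 (r = 0.81), Comp (0.79), Spp1 (0.78) and Tnc (0.76), and the mean of the macrophage markers with Tnc (0.75) and Spp1 (0.68), but with Thbs1 at 0.10. Thbs3 was most like Ecm1 (0.92), and Comp most like Mgp (0.88), the matrix Gla protein of cartilage and vessel wall.

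**Figure D5:**
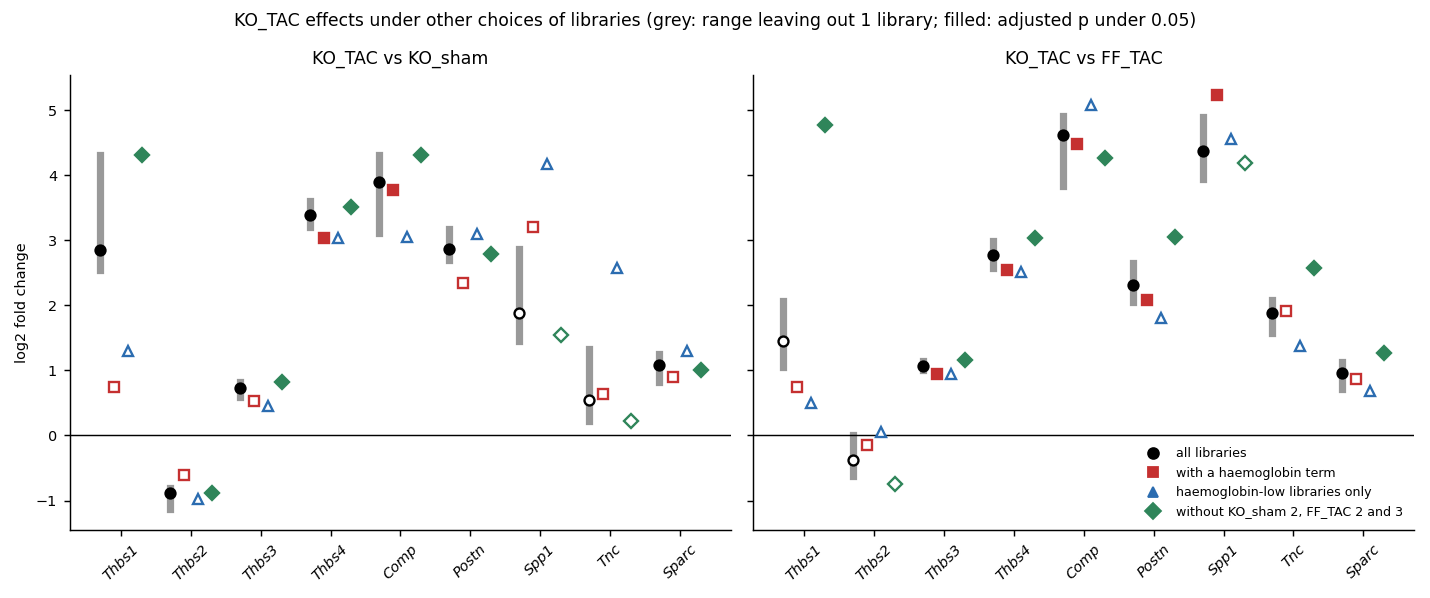
Log2 fold change (vertical axis) of each member in KO_TAC against KO_sham (left) and against FF_TAC (right), over all libraries, with a haemoglobin term, in haemoglobin-low libraries only and without KO_sham 2, FF_TAC 2 and FF_TAC 3; grey bars span the fits that each left out 1 library, and filled symbols have an adjusted p under 0.05. The Thbs4 symbols lie between 2.51 and 3.51 in all settings shown, while those of Thbs1 range from 0.50 to 4.78.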

How the data were processed

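The authors deposited 1 table of raw counts per gene and library. Per the submitters' processing notes the tools were HISAT2 2.1.0 and featureCounts of Subread 1.5.1 with GRCm38; strand setting and annotation release are not given in the sources used here. Per the labels' protocols, libraries were poly(A)-selected and directional, from flash-frozen hearts. Of 55487 identifiers 55141 were matched to symbols through GENCODE M21, which also gave positions and exon lengths, and the rest held 0.0192% of counts. Promoters came from RefSeq.

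The 2 cohorts were tested separately in edgeR 4.0.16 (R 4.3.3) by quasi-likelihood, after TMM scaling and filterByExpr, and p values were adjusted by Benjamini-Hochberg over all genes tested. The fits were tested on simulated data. All tests are two-sided. CPM levels used TMM over all 30 libraries, except summed haemoglobin and the floors, which used plain library totals. Log2 CPM for correlations had a prior count of 2. Floors of 3 counts cover counting error only. The labels do not say that the libraries of a group came from separate animals, so p values measure only the spread between these samples, which may be technical. Within groups, library pairs had a chi-square per degree of freedom of 6.29 or more, so none was a duplicate.

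The members and lists were chosen with earlier results of these data known. Named were all 9 members, per pathway list up to 4 called genes with the largest changes and at least 5 CPM in the higher group (both directions where both occurred), and the 3 genes most correlated with each member; 2 genes that this rule picks are not reported here. Alternatives were DESeq2 1.42.0, RLE size factors, no filter, a replicate block, a Myl7 term, a haemoglobin term, haemoglobin-high or haemoglobin-low libraries alone, and leaving out each library. Chosen after seeing the data were the haemoglobin-low fit of KO_TAC against KO_sham, the fits without KO_sham 2, FF_TAC 2 and FF_TAC 3, list counts under these, and the averaged TAC effect of the AAV9 cohort.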

Additional observations from a re-analysis of the deposited data

Results flagged for a closer look

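Thbs2 in KO_TAC replicate 1 stood apart from the other 3 libraries of its group, at 20.3 CPM against 11.4, 11.6 and 12.5 CPM. The gap to its nearest neighbour made up 0.840 of the group's range on the log2 scale, above Dixon's critical value for 4 values. This was the only such case among 54 combinations of member and group with 4 libraries, and chance flags about 1 in 20.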

How the results depend on the processing

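The number of members called was 3 with DESeq2 in place of 0 for FF_TAC against FF_sham, 2 in place of 0 for the interaction of knockout and TAC, 1 in place of 0 for AAV_sham against PBS_sham, and 2 in place of 0 for the averaged TAC effect of the AAV9 cohort. In these comparisons DESeq2 called 166 of 15510, 364 of 15510, 329 of 16692 and 670 of 17853 genes, where edgeR called 0, 7, 2 and 143. That average also gave 2 with no filter on low counts, where 329 of 31335 genes were called. With the Myl7 term it called 0 of 15745 genes. For KO_TAC against KO_sham the count of 7 became 2 with the haemoglobin term and 0 among haemoglobin-low libraries (4 against 1, the lone library assumed to vary like the other groups). For KO_TAC against FF_TAC the 7 became 0 among haemoglobin-low libraries (4 against 2), with fewer samples in the fit. Without the libraries labelled KO_sham 2, FF_TAC 2 and FF_TAC 3 the interaction of knockout and TAC gave 3 in place of 0, and the interaction of Thbs1 turned from −0.89 to 3.91. That interaction fit called 825 of 16319 genes, and in it every KO_TAC library was haemoglobin-low and every other library high. The cause of these shifts was not tested. Over the fits that each left out 1 library, KO_TAC against KO_sham gave 5 to 7 calls, KO_TAC against FF_TAC 5 to 7, the interaction of knockout and TAC 0 to 2 (2 without KO_TAC 1, 1 without KO_TAC 4), AAV_sham against PBS_sham 0 to 2, PBS_TAC against PBS_sham 0 to 1, the averaged AAV9 effect 0 to 2, and the other 5 comparisons 0 to 0. Among all genes, the same fits called 1956 to 6441 for KO_TAC against KO_sham and 1124 to 3845 against FF_TAC. For the interaction of knockout and TAC they called 0 to 215 (215 without KO_TAC 1, 102 without KO_TAC 4). For AAV_sham against PBS_sham the range was 1 to 2821 genes, for PBS_TAC against PBS_sham 0 to 1796, and for the averaged effect 15 to 1155. Same-numbered libraries did not consistently deviate together (correlations −0.40 to 0.46, the highest for KO_TAC 1 and FF_TAC 1), so numbers were not taken to pair them. With the replicate block the averaged AAV9 effect gave 1 call in place of 0 (Thbs4, adjusted p 0.04992), KO_TAC against FF_TAC gave 6 (Tnc lost, adjusted p 0.06159), and no other count changed. With that block the averaged effect called 24 of 15745 genes, and KO_TAC against FF_TAC 2123 of 15596. Of 621 member values under settings other than leaving out 1 library, 583 kept their direction and call or stayed uncalled. Of the rest, 23 lost a call, 14 gained one and 1 reversed. In the main fits, members were called only for KO_TAC against KO_sham and against FF_TAC, so values elsewhere had no call to lose. Depth limited Spp1 and Tnc most, with as few as 0 and 11 counts in a library.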
